A study of Mus musculus with 6 samples.

Results

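The unfolded protein response and the folding machinery of the endoplasmic reticulum (ER) were followed across 32 genes in mouse liver with a knockout of small Maf. The genes were listed by function and not by their level, as 7 sensors and transducers, 15 chaperones and folding enzymes, and 10 genes of ER-associated degradation (ERAD). Of the 32 genes, 30 were matched to at least 1 probe through the transcript accession in the array files, and all 30 passed the filter on dim probes, of 21059 genes and transcripts tested. The chaperone Dnajb11 and the disulfide isomerase Pdia3 were not matched to a probe, so no level is given for them. The question was whether the level of any of these transcripts differed between control and small Maf knockout liver.

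The small Maf factors, MafF, MafG and MafK, belong to the basic leucine zipper proteins and pair with CNC and Bach family members to bind DNA. Mice aged 5 weeks were compared, 3 control wild type animals and 3 in which small Maf was knocked out in the liver alone (sMaf CKO). Both groups were on a mixed background of 129Sv/J, C57BL/6J and ICR, kept under specific-pathogen-free conditions with free access to chow. The Cre driver, the deleted small Maf genes and the sex of the animals are not named in the labels, and every sample is RNA of whole liver tissue.

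When unfolded proteins build up in the ER, the sensors IRE1 (gene Ern1), ATF6 and PERK respond. IRE1 splices the mRNA of Xbp1 into the form that encodes an active factor, and ATF6 is cut in the Golgi by the site-1 and site-2 proteases (genes Mbtps1 and Mbtps2). Both factors raise genes for chaperones, disulfide isomerases and ERAD, while PERK slows translation and leads to ATF4. Hepatocytes secrete most plasma proteins and carry a large ER.

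Levels are log2 processed intensities minus the 75th percentile of the same array, so that 0 is the level of that percentile. They were compared with limma over all 21059 genes, with Benjamini-Hochberg adjustment and a threshold of 0.05. The 75th percentile of the signal lay between 483.4 and 960.5 on the 6 arrays, highest on sMaf CKO array 1, and 58.0% to 73.6% of probes were well above background. Slide 1 carried replicates 1 and 2 of each group and slide 2 carried replicate 3 of each, so a value within slide 2 sets 1 array against 1. The number of arrays, 3 a group, limits the precision. Mafg checks the labels as far as its probe reads the deleted part, which is not known. Its log2 level lay between 1.87 and 2.23 on the control arrays and was -2.97, -4.36 and -0.76 in sMaf CKO replicates 1, 2 and 3 (limma adjusted p = 0.0533), highest of these 3 in replicate 3. Maff and Mafk were not lower in sMaf CKO liver, with differences of 0.15 and 0.21 (limma adjusted p = 0.911 and 0.759). Their probes were well above background on all arrays, and whether they read a deleted part is also not known.

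Many genes of this response carry the ER stress response element (ERSE) ahead of their start site, a CCAAT box and a CCACG box held apart by a spacer of fixed length, which ATF6 and XBP1 bind together with NF-Y. The promoter table of RefSeq (GRCm38.p6) has entries for 28 of the 32 genes, each from 250 bases before to 50 bases after the start site. The exact letters, CCAAT, then 9 bases of any kind, then CCACG, searched on both strands, occurred at 10 places in 9 of these 28 genes (32.1%), against 37 of all 27025 genes in the table (0.137%). Seen from the element, 9 of its 37 genes (24.3%) were members. The members were listed by function in a response known for this element, so the higher share is no result of these data. Of the 9, 7 were among 13 chaperones and folding enzymes, 2 among 9 ERAD genes and 0 among 6 sensors and transducers. The 10 places are shown because most of them lie in genes of the chaperone group. The CCAAT and CCACG boxes are in capitals (ATTGG and CGTGG where the element lies on the opposite strand), with 15 bases on either side, and the strand of the gene is read 5′ to 3′.
Hspa5, chr2:34772010-34772058, plus strand: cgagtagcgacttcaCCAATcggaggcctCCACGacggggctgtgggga
Hsp90b1, chr10:86705623-86705671, minus strand: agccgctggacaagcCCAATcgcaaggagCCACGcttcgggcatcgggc
Hsp90b1, chr10:86705518-86705566, minus strand: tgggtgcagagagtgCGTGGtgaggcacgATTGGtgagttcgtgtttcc
Pdia6, chr12:17266476-17266524, plus strand: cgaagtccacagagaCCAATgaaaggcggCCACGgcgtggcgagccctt
Calr, chr8:84847060-84847108, minus strand: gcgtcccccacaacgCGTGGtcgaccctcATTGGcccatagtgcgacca
Canx, chr11:50325785-50325833, minus strand: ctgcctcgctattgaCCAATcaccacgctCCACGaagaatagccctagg
Creld2, chr15:88819505-88819553, plus strand: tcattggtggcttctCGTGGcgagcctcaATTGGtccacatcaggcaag
Dnajc3, chr14:118937812-118937860, plus strand: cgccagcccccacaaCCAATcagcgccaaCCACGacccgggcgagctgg
Syvn1, chr19:6046517-6046565, plus strand: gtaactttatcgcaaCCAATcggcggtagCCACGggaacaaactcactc
Derl3, chr10:75893227-75893275, plus strand: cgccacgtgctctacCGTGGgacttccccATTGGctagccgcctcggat
The element of Hspa5 began 65 bases before the start site, that of Syvn1 44 bases before it and the distal one of Hsp90b1 212 bases before it. The shorter core TGACGTG, bound by ATF6 and XBP1, was in 1 of the 28 genes, Hspa5 (3.57%, against 2.22% of all genes). The core TGACNNNGC of sites for CNC factors with small Maf was in 6 of the 28 (21.4%, against 14.0% of all genes), namely Ern1, Atf6b, Calr, Pdia3, Sdf2l1 and Herpud1. A match describes letters and not a bound site.

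No member passed the test between the genotypes, which with 3 arrays a group does not show that levels were equal. A list of 30 genes is also too short to expect a call at the share called over all genes. Of the 30 tested genes, 0 were higher and 0 were lower in sMaf CKO liver by limma's test, where 0.541% of all genes tested were called (0.385% higher and 0.157% lower). At an unadjusted p under 0.05 there were 3 members, Mbtps2, Herpud1 and Edem1, or 1 higher and 2 lower, against 8.71% and 8.1% of all genes in these directions. With slide as a block the counts were again 0 and 0, against 0.992% and 0.622% of all genes. The smallest adjusted p of a member was 0.229. Of the 30 differences, 12 were above 0 and 18 below, where 45.3% of all genes were above 0 and 54.7% below. The fitted differences ran from -0.77 (Herpud1) to 0.54 (Mbtps2), with a median of -0.09 against -0.05 over all genes, and their median size without sign was 0.21 against 0.31 over all genes. Of the 30 members, 29 were well above background on all 6 arrays, and sizes were not compared at matched brightness. The 95% interval of the difference lay within 1 log2 unit on either side of 0 for 22 of the 30 members, and over all 30 the intervals reached from -1.40 to 1.28. Arrays of control and sMaf CKO liver were fully apart for 5 genes in the direction of sMaf CKO (Atf6, Atf6b, Mbtps2, Hspa5 and Creld2) and for 5 in the other (Dnajc3, P4hb, Herpud1, Edem1 and Derl2). That is 33.3% of members, against 22.9% of all genes tested (11.3% higher and 11.5% lower). In bulk liver RNA, fewer cells of a type and less RNA per cell cannot be told apart.

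**Figure D1:**
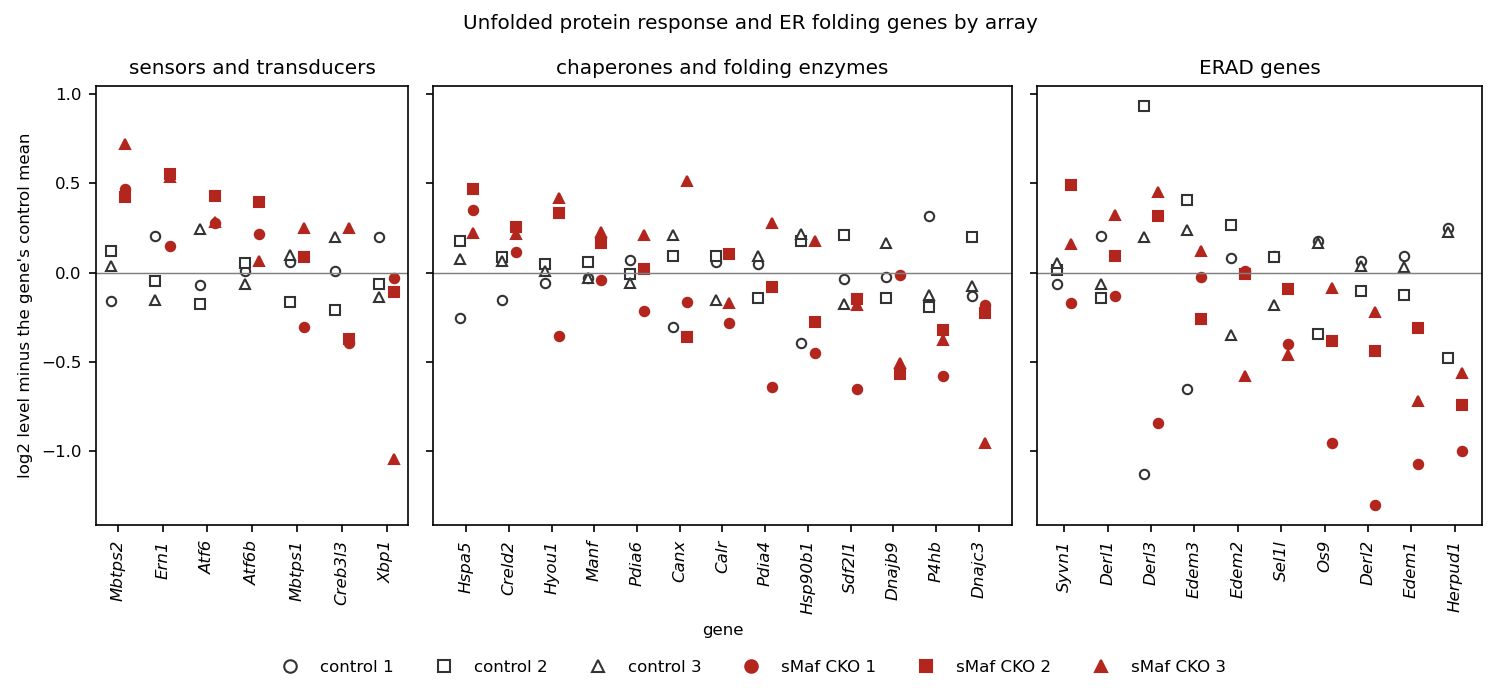
Log2 level of each of the 30 members on each of the 6 arrays minus the mean of the 3 control arrays, by role (open symbols control, filled symbols sMaf CKO, 1 symbol shape per replicate number). Most filled symbols sit among or near the open ones. Those of Edem1, Derl2, Herpud1, Dnajc3 and P4hb all lie below the control arrays, and those of Mbtps2, Atf6, Atf6b, Hspa5 and Creld2 all lie above them.

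Among the sensors and transducers, 5 of 7 fitted differences were positive, with a median of 0.22 (0.27 within slide 1 and 0.13 within slide 2). Ern1 encodes the kinase and endoribonuclease IRE1. Its log2 level was -1.26, -1.51 and -1.62 in control and -1.31, -0.91 and -0.93 in sMaf CKO liver, each in the order of replicates 1, 2 and 3, as in all such lists of values here. sMaf CKO arrays 2 and 3 lay above all controls while array 1 lay among them. The difference was 0.41 (SE 0.23, limma adjusted p = 0.399), or 0.27 within slide 1 and 0.69 within slide 2.

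For Atf6, the ER-bound precursor of a transcription factor, the levels were 1.33, 1.22 and 1.64 in control and 1.67, 1.83 and 1.68 in sMaf CKO liver. All 3 sMaf CKO arrays were higher, by a small margin over control array 3. The difference was 0.33 (SE 0.21, limma adjusted p = 0.472), 0.48 within slide 1 and 0.04 within slide 2, and a second probe gave 0.61. Its relative Atf6b also had arrays that did not overlap, with a difference of 0.22 (limma adjusted p = 0.608).

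Mbtps2, the site-2 protease, was dim, and its probe was not well above background on 1 of the 3 control arrays. Levels were -5.26, -4.97 and -5.06 in control and -4.63, -4.67 and -4.38 in sMaf CKO liver. All sMaf CKO arrays were higher than all controls, and the difference was 0.54 or 1.45-fold (SE 0.21, limma adjusted p = 0.262), with 0.47 within slide 1 and 0.68 within slide 2. It was 0.19 under normexp background correction. Mbtps1, the site-1 protease, differed by 0.01, with the opposite sign within slide 1 (-0.06) and under median scaling (-0.01) and normexp correction (-0.03).

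Xbp1 encodes the factor that IRE1 activates by splicing. Its levels were 3.27, 3.01 and 2.94 in control and 3.05, 2.97 and 2.03 in sMaf CKO liver. Array 3 of sMaf CKO was low and the other 2 lay among the controls. The difference was -0.39 (SE 0.31, limma adjusted p = 0.558), with -0.14 within slide 1 and -0.91 within slide 2. Leaving out sMaf CKO replicate 3 gave -0.07. The array has 1 matched probe for Xbp1, which was not used to tell the spliced form from the unspliced one. Creb3l3, a liver-enriched factor of the ATF6 kind that is also cut in the Golgi, differed by -0.17 (limma adjusted p = 0.775), and the sign was positive within slide 2 (0.05), under quantile normalization (0.20) and under spike-in scaling (0.13).

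The chaperones and folding enzymes had a median difference of -0.11, with 5 of 13 tested genes positive and 8 negative. Hspa5 encodes BiP, the main Hsp70 chaperone of the ER and a common marker of ER stress. Its levels were 5.84, 6.27 and 6.17 in control and 6.44, 6.56 and 6.32 in sMaf CKO liver. Each sMaf CKO array was above each control array, with array 3 just above control array 2. The difference was 0.35 or 1.27-fold (SE 0.22, limma adjusted p = 0.461). Its 95% interval ran from 0.897-fold to 1.80-fold. The value was 0.45 within slide 1 and 0.15 within slide 2. Without control replicate 1 it was 0.22 and under quantile normalization 0.73.

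P4hb, a protein disulfide isomerase, was at 6.82, 6.31 and 6.37 in control and 5.92, 6.18 and 6.12 in sMaf CKO liver. The groups did not overlap, and the difference was -0.43 (SE 0.23, limma adjusted p = 0.395), -0.51 within slide 1 and -0.25 within slide 2. It was -0.27 without control replicate 1 and -0.03 under quantile normalization.

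Dnajc3 encodes a J-domain cochaperone of BiP that also inhibits PERK. Its levels were 3.44, 3.77 and 3.49 in control and 3.38, 3.34 and 2.61 in sMaf CKO liver. All 3 sMaf CKO arrays were lower, with array 3 well below the other 2. The difference was -0.45 (SE 0.27, limma adjusted p = 0.442), -0.24 within slide 1 and -0.88 within slide 2, and it was -0.20 without sMaf CKO replicate 3. Of the 3 other probes of the gene, 2 gave -0.30 and -0.54 and 1 gave 0.01.

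Dnajb9, another J-domain cochaperone of BiP and a known target of XBP1, was at 2.12, 2.0 and 2.31 in control and 2.13, 1.57 and 1.64 in sMaf CKO liver. sMaf CKO array 1 lay among the controls and the other 2 below them. The difference was -0.36 (SE 0.24, limma adjusted p = 0.477), and -0.21 in slide 1 against -0.67 in slide 2.

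The other 9 tested genes of this group had differences between -0.33 (Sdf2l1, a component of BiP chaperone complexes) and 0.20 (Creld2, a secreted ER stress protein), with adjusted p from limma no lower than 0.522. Hyou1, an Hsp70-like chaperone that helps BiP release its nucleotide, differed by 0.13, though by -0.004 within slide 1. Manf, a secreted ER stress factor, differed by 0.12 with a 95% interval from -0.35 to 0.58. The lectin chaperones of glycoproteins, calreticulin (Calr) and calnexin (Canx), differed by -0.11 and -0.003, and both signs were positive under quantile normalization (0.14 and 0.25) and spike-in scaling (0.19 and 0.30).

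Hsp90b1, which encodes the ER Hsp90 protein GRP94, differed by -0.18 with its brighter probe, again with the opposite sign under these 2 scalings (0.21 and 0.12). The isomerases Pdia4 and Pdia6 differed by -0.15 and 0.01. Pdia4 was positive under spike-in scaling (0.15) and within slide 2 (0.19), and Pdia6 negative under median scaling (-0.02), under normexp correction (-0.03) and within slide 1 (-0.12).

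Members that carry the printed ERSE had differences of both signs. Of these 9 tested genes, 4 had positive and 5 negative differences, with a median of -0.003 and a range from -0.45 (Dnajc3) to 0.35 (Hspa5). Of the 17 tested members with a promoter entry and no exact ERSE in it, 4 were positive and 13 negative, with a median of -0.32. Over all genes, 54.7% were negative. The sets also differed in role. The element was in 7 of 13 chaperones and folding enzymes with a promoter entry and in 2 of 9 ERAD genes. The difference between these sets was not tested, and role was not separated from the element.

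**Figure D2:**
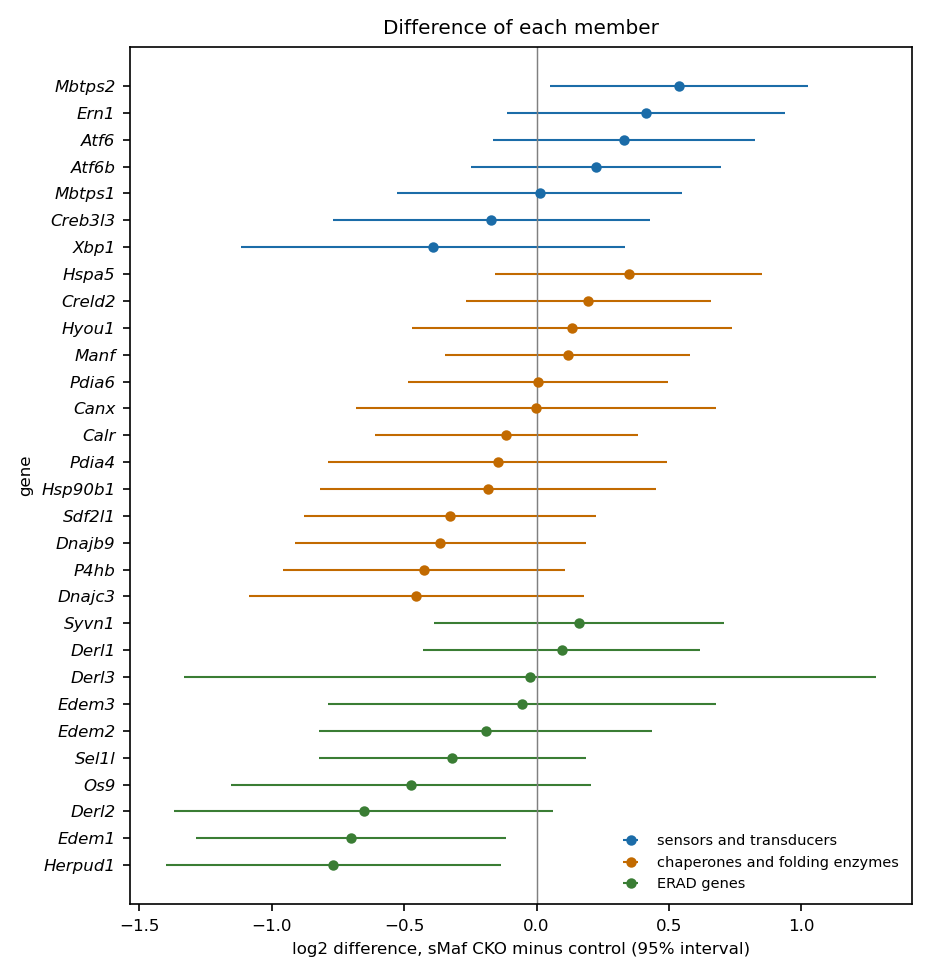
Log2 difference of each tested member, sMaf CKO minus control, with its 95% interval from limma, grouped by role. Intervals include 0 for 27 of 30 genes, and those of Mbtps2, Edem1 and Herpud1 do not.

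ERAD draws misfolded proteins out of the ER and hands them to the proteasome. Of the 10 tested genes, 8 had negative differences and 0 passed limma's test, against 54.7% and 0.541% of all genes. Their median difference was -0.26, with -0.25 in slide 1 and -0.24 in slide 2. Under spike-in scaling it was 0.046, with 5 of the 10 negative. The mean deviation of these genes from control was -0.59 in sMaf CKO replicate 1, -0.13 in replicate 2 and -0.16 in replicate 3. A lowest score on sMaf CKO array 1, which also had the highest 75th percentile, was not particular to ERAD genes. It was found for all members (-0.29), chaperones (-0.24), translocon and signal peptide processing (-0.23), glycan checking (-0.41) and further ERAD factors (-0.355). Sensors and transducers had theirs on control array 2 (-0.07). Hepatocyte markers also had their lowest score on sMaf CKO array 1. Of the 12 tested markers (15 listed), 12 were negative, against 54.7% of all genes. Among them 1 (Tdo2) fell, by 1.87 (limma adjusted p = 0.0382), where 0.157% of all genes were called lower. That call was lost when any single array other than sMaf CKO 3 was left out. It was also lost under quantile normalization (limma adjusted p = 0.0596) and spike-in scaling (limma adjusted p = 0.3). The median of the markers was -0.51, but -0.20 under quantile normalization, where 10 of 12 were negative. It was -0.21 under spike-in scaling and -0.19 within slide 2. The marker score ranged from -0.91 to -0.33 in sMaf CKO and from -0.14 to 0.08 in control liver. Their summed level relative to the 75th percentile was 2870 to 3460 in control and 1890 to 3120 in sMaf CKO liver, and all were well above background on at least 1 control array. The part of hepatocyte content in the ERAD values was not tested.

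Herpud1 encodes a membrane protein of the ERAD ligase complex that is induced by ER stress. Its levels were 6.62, 5.89 and 6.60 in control and 5.37, 5.63 and 5.81 in sMaf CKO liver. The arrays did not overlap, though control array 2 and sMaf CKO array 3 lay close together. The difference was -0.77, or 1.70-fold lower (SE 0.27, limma adjusted p = 0.229), and -0.76 within slide 1 and -0.79 within slide 2. It was -0.39 under quantile normalization.

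Edem1, a lectin that marks misfolded glycoproteins for ERAD and a target of XBP1, was at 3.56, 3.34 and 3.50 in control and 2.40, 3.16 and 2.75 in sMaf CKO liver. All sMaf CKO arrays were below all controls. The difference was -0.70, or 1.62-fold lower (SE 0.25, limma adjusted p = 0.234), with -0.68 within slide 1 and -0.75 within slide 2. Its 2 other probes gave -0.55 and -0.61, and the arrays did not overlap with any of the 3. The relatives Edem2 and Edem3 differed by -0.19 and -0.06 (limma adjusted p = 0.754 and 0.949), both positive under spike-in scaling (0.11 and 0.25).

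Derl2 encodes a derlin, a membrane protein of the channel for misfolded proteins. Its levels were 5.86, 5.69 and 5.83 in control and 4.49, 5.36 and 5.57 in sMaf CKO liver. The sMaf CKO arrays were all lower, array 1 by far the most. The difference was -0.65 (SE 0.31, limma adjusted p = 0.335), -0.85 within slide 1 and -0.26 within slide 2. It was -0.33 without sMaf CKO replicate 1, -0.34 under quantile normalization and -0.35 under spike-in scaling. The second probe gave -0.77 with adjusted p = 0.171 in limma's fit over probes. Derl1 differed by 0.09, with -0.05 within slide 1. Derl3 differed by -0.02 (positive under spike-in scaling, 0.28), and it had the widest interval of all members, from -1.33 to 1.28, with control arrays between -3.32 and -1.25. Markers of B and plasma cells, of which plasma cells are known for high Derl3, had a median of 0.18 over 8 tested of 10. Of these 8, 0 were called, against 0.541% of all genes tested. Their scores were -0.27 to 0.15 in control and -0.51 to 0.60 in sMaf CKO liver, and their part in the Derl3 values was not tested.

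Os9, a lectin that brings glycoproteins to the ligase, was at 5.40, 4.88 and 5.39 in control and 4.27, 4.84 and 5.14 in sMaf CKO liver. The groups overlapped. The difference was -0.47 (SE 0.29, limma adjusted p = 0.455), -0.59 within slide 1 and -0.25 within slide 2. Leaving out sMaf CKO replicate 1 gave -0.23. It was -0.20 under quantile normalization and -0.17 under spike-in scaling, while a dimmer second probe gave -1.02 with arrays that did not overlap. The ligase Syvn1 (HRD1) differed by 0.16 and its partner Sel1l by -0.32 (limma adjusted p = 0.768 and 0.496), each with the same sign within both slides.

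The choice of probe mattered for some members. The 30 genes had 53 probes past the filter, and 14 genes had more than 1. None of the 53 passed limma's test over probes (0 called, smallest adjusted p 0.171), against 0.424% of all probes in that fit. The arrays did not overlap for 18 of the 53 (34%), against 22.7% of all probes. In 4 genes, Mbtps1, Dnajc3, Pdia6 and Derl1, the probes gave differences of both signs. The dimmer probe of Hsp90b1 gave -0.76, with levels of 5.99, 5.90 and 4.93 on the sMaf CKO arrays against 6.08 to 6.62 on the controls.

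**Figure D3:**
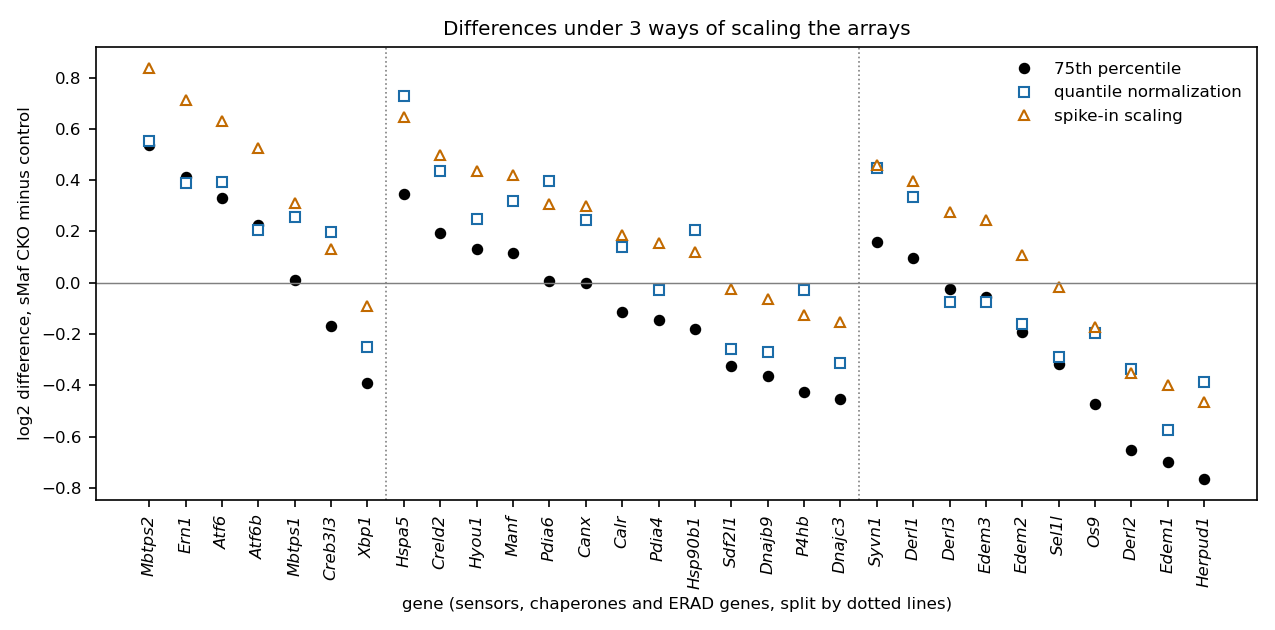
Log2 difference of each tested member under scaling to the 75th percentile (filled circles), quantile normalization (squares) and spike-in scaling (triangles). The sign of 4 genes turned under quantile normalization and of 8 under spike-in scaling, which moves every member up by the same 0.30, whereas Herpud1, Edem1 and Derl2 stayed below 0 and Hspa5, Ern1, Atf6 and Mbtps2 above 0.

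The signs of small differences depended on how the arrays were scaled. Spike-in scaling adds the same 0.30 to the log2 difference of every member, so it moves the zero line and keeps their order, and it took the median of all genes from -0.05 to 0.25 and that of the members from -0.09 to 0.22. Quantile normalization put the median of the members at 0.17 with 14 of 30 negative, against 18 negative with the 75th percentile and 10 with spike-ins. Under quantile normalization, which can change the order, the medians were -0.18 for ERAD genes, 0.21 for chaperones and 0.26 for sensors and transducers.

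The third branch of the response, through PERK, was read from a separate list of 20 genes that also respond to amino acid shortage and other stress. Of 19 tested genes (Slc7a11 did not pass the filter), 3 rose in sMaf CKO liver and 0 fell, where 0.385% of all genes were called higher, and the median difference was 0.87 against -0.05 over all genes. Nupr1, a stress-induced chromatin protein, was at 0.03, -0.82 and -0.23 in control and 4.24, 3.24 and 2.76 in sMaf CKO liver (difference 3.76, SE 0.41, limma adjusted p = 0.0218). Fgf21, a hormone secreted by the stressed or fasted liver, was at 0.45, -0.82 and 0.11 in control and 2.86, 4.08 and 3.07 in sMaf CKO liver (3.42, SE 0.43, limma adjusted p = 0.0367). The groups of both genes stood far apart.

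Atf3, a stress-induced transcription factor, was at -1.44, -1.43 and -2.48 in control and 2.03, 2.33 and 0.65 in sMaf CKO liver (3.45, SE 0.49, limma adjusted p = 0.0402). The 3 genes differed by at least 2.96 within each slide. None of the 3 kept its call without control replicate 1 or 3, without sMaf CKO replicate 1 or 2, without the filter on dim probes or under quantile normalization, where their adjusted p lay between 0.0596 and 0.160. Under spike-in scaling, Fgf21 kept it and the other 2 did not. Ddit3, which encodes the stress factor CHOP, differed by 2.07 (limma adjusted p = 0.0854) and rose with slide as a block (adjusted p = 0.0354). Eif2ak3, which encodes PERK itself, differed by 0.88 (limma adjusted p = 0.248) with arrays that did not overlap.

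Not all of that list was high. Arrays were fully apart in the direction of sMaf CKO for 9 of its 19 tested genes and in the other direction for 2, Chac1 and Ppp1r15b. Over all genes these shares were 11.3% and 11.5%. Ppp1r15b differed by -0.62 (limma adjusted p = 0.238). Atf4 differed by 0.01 (limma adjusted p = 0.988), Ppp1r15a, which reverses the block of translation, by 0.15, and Chac1, a glutathione-degrading enzyme, by -1.30 (limma adjusted p = 0.204). Macrophage and monocyte markers were mostly higher on the same arrays, with 13 of 14 tested markers positive (15 listed), against 45.3% of all genes. Their median was 0.76, and the 1 negative marker differed by -0.85 with arrays fully apart. Of the 14, 2 passed limma's test, Trem2 (4.18) and Gpnmb (5.52), where 0.385% of all genes were called higher. The scores of the 14 markers, means that include these 2 genes, were 0.78 to 1.45 in sMaf CKO liver and -0.43 to 0.28 in control. Their summed levels were 92.8 to 110.0 and 71.3 to 106.0. Gpnmb alone among the 14 had only a bound in control liver, since none of its control spots stood well above background, and was at least 22.2-fold higher in sMaf CKO liver (limma adjusted p = 0.0117). The part of these cells in the values of the PERK list was not tested.

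**Figure D4:**
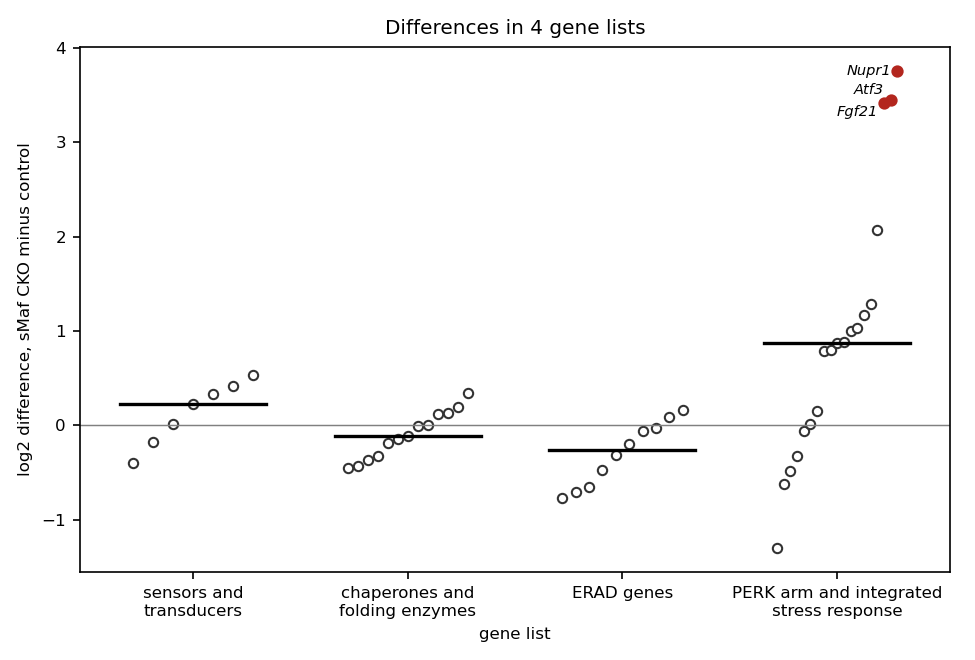
Log2 difference, sMaf CKO minus control, of each tested gene in the 3 roles of the unfolded protein response and in the PERK arm and integrated stress response list. Bars are medians (0.22, -0.11, -0.26 and 0.87) and filled points are genes past limma's test, which were Nupr1, Fgf21 and Atf3.

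Other parts of the secretory pathway gave 0 called genes, where 0.541% of all genes tested were called and 54.7% had a difference below 0. At that share of calls, lists of this length are too short to expect a call. For the translocon and signal peptide processing, 17 of 22 tested genes were negative, with a median of -0.18. The smallest p belonged to the signal peptidase subunit Spcs3 (-0.41, limma adjusted p = 0.372) and Ssr2 (-0.40, adjusted p = 0.419). For the oligosaccharyltransferase and glycan checking, 13 of 18 were negative, with a median of -0.20, and the cargo lectins Lman2 and Lman1 had the smallest p (-0.92 and -0.45, limma adjusted p = 0.154 and 0.421). Both medians turned positive under quantile normalization (0.09 and 0.08) and spike-in scaling (0.13 and 0.10).

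Other ER folding enzymes had a median of -0.10 over 20 genes (0.09 under quantile normalization and 0.20 under spike-in scaling). The sulfhydryl oxidase Qsox1 (-0.98, limma adjusted p = 0.142) and the isomerase Pdia5 (-0.70, adjusted p = 0.172) had the smallest p. Further ERAD and extraction factors had a median of -0.26 over 20 tested genes of 21 (0.04 under spike-in scaling), with the ubiquitin ligases Ube4b (-0.61, limma adjusted p = 0.269) and Rnf5 (-0.51, adjusted p = 0.288) smallest in p. The COPII coat and ER exit list had a median of -0.01 over 18 genes (0.13 and 0.29 under these scalings), with the cargo receptors Mia3 (-0.66, limma adjusted p = 0.316) and Mia2 (-0.56, adjusted p = 0.385) smallest in p.

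Transcripts that active IRE1 is known to degrade had a median of 0.37 (0.11 within slide 1 and 0.34 within slide 2). Of these, 5 of 7 were positive and 0 called, against 45.3% positive and 0.541% called over all genes. Pmp22 and Col6a1 had the smallest p, each at 0.87 (limma adjusted p = 0.152 and 0.280). Some of them, such as Col6a1, Pdgfrb and Sparc, are also genes of stellate cells, whose 9 tested markers of 9 were all positive with a median of 0.47. Stellate scores were 0.49 to 0.79 in sMaf CKO and -0.12 to 0.22 in control liver, with summed levels of 142 to 171 and 93.6 to 120.0, and their part in these values was not tested.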

How the data were processed

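The 6 arrays were one-colour (Cy3) Agilent arrays, 1 per sample. Per the file headers, the authors extracted spot intensities with Agilent Feature Extraction 10.7.3.1, which subtracts background within an array, and no step between arrays is recorded. A deposited value table gives log2 values, and how the authors made them is not stated in the labels. They matched the log2 processed intensity minus the 75th percentile, centred on each probe's median (r = 1.00 on each array over 41121 probes, array medians -0.11 to 0.09), which settles scale, centring and direction.

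Control spots and outlier spots were left out, spots of a probe were averaged on the log2 scale, and a probe was kept when at least 3 of 6 arrays had it well above background (27859 of 41174). Probes were named by transcript accession through RefSeq (GRCm38.p6), which matched 26690. For each gene the kept probe with the highest mean was used. Groups came from the sample titles. limma 3.58.1 in R 4.3.3 (lmFit, eBayes, genotype alone) was fitted to all 21059 genes with Benjamini-Hochberg adjustment at 0.05 and was tested on simulated data. A list is described by counts, its median and a score per array, the mean deviation of its genes from their control means. The members, lists and tests were chosen with earlier results of these data known. The text gives array values for the 4 members with the smallest p in each role, and for other lists the called genes or the 2 with the smallest p. Values of further genes, such as Ddit3, Eif2ak3, Atf4, Ppp1r15a and Chac1, were chosen after they were seen. Alternatives were normexp correction (offset 50), quantile, median and spike-in scaling, the deposited log2 table, other filters, the mean of probes, replicate and slide blocks, array weights, trend and robust settings and each array left out. The submitters call the RNA samples independent. Protein sequences were not used here.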

Additional observations from a re-analysis of the deposited data

How the results depend on the processing

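The count of members called was 0 higher and 0 lower in each of the 19 alternatives with a test, where the smallest adjusted p of a member ranged from 0.139 (array weights) to 0.659 (spike-in scaling), while 1 to 472 genes were called over the whole array. With the replicate number as a block the smallest was 0.193 and the count was again 0. Same-numbered arrays correlated at 0.06, 0.17 and 0.42 in their deviations from the group means, so the numbers were not taken as pairs, and the block raised the calls over all genes from 114 to 291. Group medians moved beyond the spread between arrays in 12 of 80 comparisons, some of which (the blocks, the trend and robust setting) cannot change a difference. The median of all members was 0.17 under quantile normalization, 0.22 under spike-in scaling and 0.046 within slide 2. That of sensors and transducers was 0.53 under spike-in scaling, 0.12 with the filter of all 6 arrays, which drops Mbtps2, 0.32 with array weights and 0.13 within slide 2. That of chaperones was 0.21 under quantile normalization, 0.19 under spike-in scaling and 0.15 within slide 2, and that of ERAD genes 0.046 under spike-in scaling. Leaving out each array in turn gave medians from -0.15 to 0.02 for all members, 0.14 to 0.30 for sensors, -0.20 to 0.077 for chaperones (highest without sMaf CKO replicate 1) and -0.38 to -0.17 for ERAD genes. The causes of these moves were not tested. The PERK list had 0 to 5 genes called over the alternatives, and its median was 0.52 to 1.18.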

Other observations

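Outside the listed members, 28 genes carried the exact ERSE letters in the same promoter window, and 11 of them were tested. Of these 11, limma called 0 (3 had an unadjusted p under 0.05, against 16.8% of all genes), 5 differences were positive and 6 negative, and the median was -0.14. Ero1b, an oxidase that recharges protein disulfide isomerases, differed by -0.60 (adjusted p = 0.249 by limma) with arrays that did not overlap. Spats2l had the largest difference of the 11, 1.77 (adjusted p = 0.0722 by limma). These 2 genes were chosen after their values were seen.

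A second form of the element, ATTGG, then 1 base of any kind, then CCACG, searched on both strands and added after the data were seen, was in 12 of 27025 genes (0.0444%) and in 2 of the 28 members with a promoter entry, Herpud1 and Dnajb11. In Herpud1 it began 52 bases before the start site, at chr8:94386362-94386402 (GRCm38.p6, plus strand) with its flanks, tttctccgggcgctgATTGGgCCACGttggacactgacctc, with the boxes in capitals. Herpud1 was the member with the lowest fitted difference, -0.77. The other 7 tested genes with this form differed by -0.82 (Rcl1) to 0.78 (Lgalsl), and limma called 0 of them (2 of the 7 had an unadjusted p under 0.05, against the same 16.8%).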
